A study of Mus musculus with 6 samples.

Results

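The microRNAs (miRNAs) mmu-miR-210, mmu-miR-103, mmu-miR-138, mmu-miR-293 and mmu-miR-470 were 5 of 709 miRNA assays on a SYBR Green real-time PCR array of mouse osteoclasts, myeloid cells that resorb bone. The prefix mmu, for mouse, is left out below. They were chosen because their deposited knockdown values, unlike those of most assays, did not average to the level of the reference RNA. The osteoclasts came from bone marrow by magnetic sorting for OSCAR and CTR. The intact group held 3 samples from mice labelled OCmiR-Intact, and the knockdown group held 3 samples from mice labelled OCmiR-KD, in which osteoclast miRNAs were knocked down. The labels name no construct, driver or target gene for the knockdown, no allele or agent that both groups share, and no strain, age or sex. The study's design text speaks of RNA from 3 mice per group being pooled, so the 3 samples of a group may be mice or repeat measurements of a pool. All spreads below describe these samples only, and in bulk RNA fewer cells of a type and less RNA per cell cannot be told apart.

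A PCR array has no read depth. It gives a threshold cycle (Ct), the PCR cycle where the signal passes a threshold, and a lower Ct stands for more template. The level used below is the deposited delta Ct with its sign turned. It is in log2 units, so 1 unit stands for 1 cycle, and it is relative to U6, a small nuclear RNA, on the plate of the assay. Values in all 6 samples were listed for 95 of the 709 assays, and 614 were Null in all 6. All 5 miRNAs were among the 95, and all lay on plate 1.

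A mature miRNA guides the silencing complex to messenger RNAs that pair with its seed, bases 2 to 8. miR-210 is the miRNA most widely raised by low oxygen, through HIF-1 alpha, and it represses Iscu and thereby mitochondrial respiration. miR-103 and its near-twin miR-107 come from introns of pantothenate kinase genes and repress Dicer1, the enzyme that cuts miRNA precursors. miR-138 is enriched in brain, where it acts at dendritic spines, and it restrains osteoblast formation in mesenchymal cells. miR-293 belongs to the miR-290 to miR-295 cluster of embryonic stem cells. miR-470 is an X-linked miRNA known from testis and reported to repress Nanog. Bone marrow is poor in oxygen, but no oxygen treatment is named in the labels, so the samples give no test of a response to it.

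The sequences of the assays are shown because the seeds show that no 2 of the 5 miRNAs form a family, and because 1 assay, miR-103, has a near-identical neighbour on the array. Capitals mark the seed, and every line reads 5′ to 3′.
miR-210: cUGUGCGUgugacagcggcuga
miR-103: aGCAGCAUuguacagggcuauga
miR-107: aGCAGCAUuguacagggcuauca
miR-138: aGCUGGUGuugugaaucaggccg
miR-293: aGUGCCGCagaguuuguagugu
miR-470: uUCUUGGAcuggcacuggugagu
miR-543: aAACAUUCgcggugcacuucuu
The first 6 belong to the 5 miRNAs and to miR-107, and miR-543 is added because its values over the samples were most like those of miR-210. All 7 were identical to mature miRNAs in RefSeq (GRCm38.p6), named there miR-210-3p, miR-103-3p, miR-107-3p, miR-138-5p, miR-293-3p, miR-470-5p and miR-543-3p.

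miR-103 and miR-107 differ by the substitution G22C, counted from 1 at the 5′ end of miR-103. The miR-107 assay was Null in all 6 samples while miR-103 had a value in each, although both share the seed GCAGCAU. For the other 4 miRNAs no second assay on the array shared the seed. The nearest assay by sequence was miR-378 for miR-138, at 8 base changes, miR-124* for miR-210, at 9, miR-292-3p for miR-293, at 6, and miR-465a-5p for miR-470, at 7. Of these, miR-378 had values, and the other 3 were Null. miR-210 was the richest of the 5 in G and C, at 63.6% of its bases, against a median of 47.6% over the 95 measured assays.

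The mature miR-210 sequence lies at chr7:141221407-141221428 on the minus strand (GRCm38.p6), outside any other annotated gene. miR-103 has 2 loci. One is at chr11:35782447-35782469 within Pank3 and the other is at chr2:131288103-131288125 within Pank2, both on the plus strand. miR-138 also has 2 loci, at chr9:122682898-122682920, outside any other gene, and at chr8:94324312-94324334 within the bounds of Nup93, both on the plus strand. The assay cannot tell the loci of miR-103 or of miR-138 apart. miR-293 lies at chr7:3220390-3220411 on the plus strand, within the annotated bounds of D7Ertd143e and Nlrp12. miR-470 lies at chrX:66813995-66814017 on the minus strand, outside any other gene. Within 10 kb of miR-293, RefSeq lists 8 other miRNA genes, all of the miR-290 to miR-295 cluster. Their mature sequences account for 11 assays on the array, of which 0 had a value. Within 10 kb of miR-470 lie 2 other miRNA genes, with 1 assay and 0 values. No other miRNA gene lies within 10 kb of the loci of miR-210, miR-103 or miR-138. The passenger strands miR-138*, miR-293* and miR-470* were on the array and Null in all 6 samples.

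The values that chose the 5 miRNAs are those of the knockdown samples, turned from cycles into linear amounts with U6 of plate 1 as 1. In 88 of the 95 measured assays these average 1 to within 0.001 over the 3 knockdown samples, so the knockdown mean of those assays is not a free measurement. In the intact samples this held for 0 of 95. The assays just inside the limit were miR-1894-5p, with a mean 0.000315 from 1, miR-425, at 0.000306, and miR-1, at 0.000286. The one just outside was miR-293, at 0.542, followed by miR-470, at 0.631, and miR-138, at 0.964. With a limit of 0.01 or 0.05 the count outside was also 7. The linear knockdown mean was 20.4 for miR-103, 7.48 for miR-210, 1.63 for miR-470, 1.54 for miR-293 and 0.0359 for miR-138. The same mean in intact samples was 17.0 for miR-103, 8.08 for miR-210, 1.01 for miR-470, 0.653 for miR-293 and 0.0386 for miR-138. The 2 other assays outside the limit were miR-543 and miR-668, both of the Dlk1-Dio3 imprinted cluster.

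Because the miRNAs were chosen from the knockdown values, the difference between the groups is given for them as a description and without a test. Of the 5, 0 passed the threshold (limma, adjusted p under 0.05 over all 95 assays) and 0 had an unadjusted p under 0.05, while 84.2% of the 95 passed. All 80 of the latter were lower in knockdown, and all 80 were among the 88 with a linear knockdown mean of 1. The 2 groups overlapped for each of the 5, while they did not overlap for 82.1% of the 95. Since the choice used this contrast, nothing is read from either count. The SE and 95% intervals below are limma's, which draw on the variance of all 95 assays and not only on the assay's own samples.

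miR-210, the HIF-1 target, had levels of 3.06, 3.20 and 2.73 in intact samples 1, 2 and 3, and of 3.68, 2.72 and 1.62 in knockdown samples 1, 2 and 3. The intact values lay close together, and the knockdown values lay on both sides of them, with sample 1 highest and sample 3 lowest. The intact mean was 3.00 ± 0.24 (SD, n = 3) and the knockdown mean was 2.67 ± 1.03 (SD, n = 3). The difference, knockdown minus intact, was -0.33 (SE 0.63, 95% interval -1.78 to 1.13), which spans from 3.44-fold lower to 2.18-fold higher. Without knockdown sample 3 it was 0.20, and without knockdown sample 1 it was -0.83.

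miR-103, the Dicer1 repressor, had levels of 3.53, 4.11 and 4.46 in intact samples 1, 2 and 3, and of 3.74, 5.26 and 3.24 in knockdown samples 1, 2 and 3. Knockdown sample 2 was the highest of the 6 and knockdown sample 3 the lowest, with all intact values between them. The intact mean was 4.03 ± 0.47 (SD, n = 3) and the knockdown mean was 4.08 ± 1.05 (SD, n = 3), with a difference of 0.046 (SE 0.65, 95% interval -1.48 to 1.57). Without knockdown sample 2 the difference was -0.54, and without knockdown sample 3 it was 0.46.

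miR-138, known from neurons, had levels of -5.52, -5.01 and -3.99 in intact samples 1, 2 and 3, and of -4.48, -4.70 and -5.35 in knockdown samples 1, 2 and 3. Here the intact values lay further apart than the knockdown values, and both the highest and the lowest sample were intact. The intact mean was -4.84 ± 0.78 (SD, n = 3) and the knockdown mean was -4.84 ± 0.45 (SD, n = 3), with a difference of -0.0037 (SE 0.58, 95% interval -1.36 to 1.35). It was -0.34 without intact sample 1 and 0.42 without intact sample 3. Its Ct of 34.3 to 35.6 was the latest of the 95 assays in each sample, late in a run of 40 cycles.

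miR-293, of the embryonic stem cell cluster, had levels of -1.06, 0.019 and -1.11 in intact samples 1, 2 and 3, and of 2.02, -1.19 and -2.95 in knockdown samples 1, 2 and 3. The knockdown samples ranged over 4.97 log2 units, against 1.13 in intact samples. The intact mean was -0.72 ± 0.64 (SD, n = 3) and the knockdown mean was -0.71 ± 2.52 (SD, n = 3), with a difference of 0.0073 (SE 1.18). The 95% interval of -2.73 to 2.75 reaches from 6.65-fold lower to 6.72-fold higher. The difference was -1.36 without knockdown sample 1 and 1.13 without knockdown sample 3.

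miR-470, the X-linked testis miRNA, had levels of 0.057, 0.31 and -0.415 in intact samples 1, 2 and 3, and of 1.67, 0.605 and -2.42 in knockdown samples 1, 2 and 3. As for miR-293, knockdown sample 1 was the highest of the 6 and knockdown sample 3 the lowest. The intact mean was -0.017 ± 0.37 (SD, n = 3) and the knockdown mean was -0.049 ± 2.12 (SD, n = 3), with a difference of -0.032 (SE 1.01, 95% interval -2.37 to 2.31). The difference was -0.89 without knockdown sample 1 and 1.16 without knockdown sample 3. Averaged on the linear scale before taking the log, the differences of miR-293 and miR-470 were 1.24 and 0.69, since knockdown sample 1 then weighs most.

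**Figure D1:**
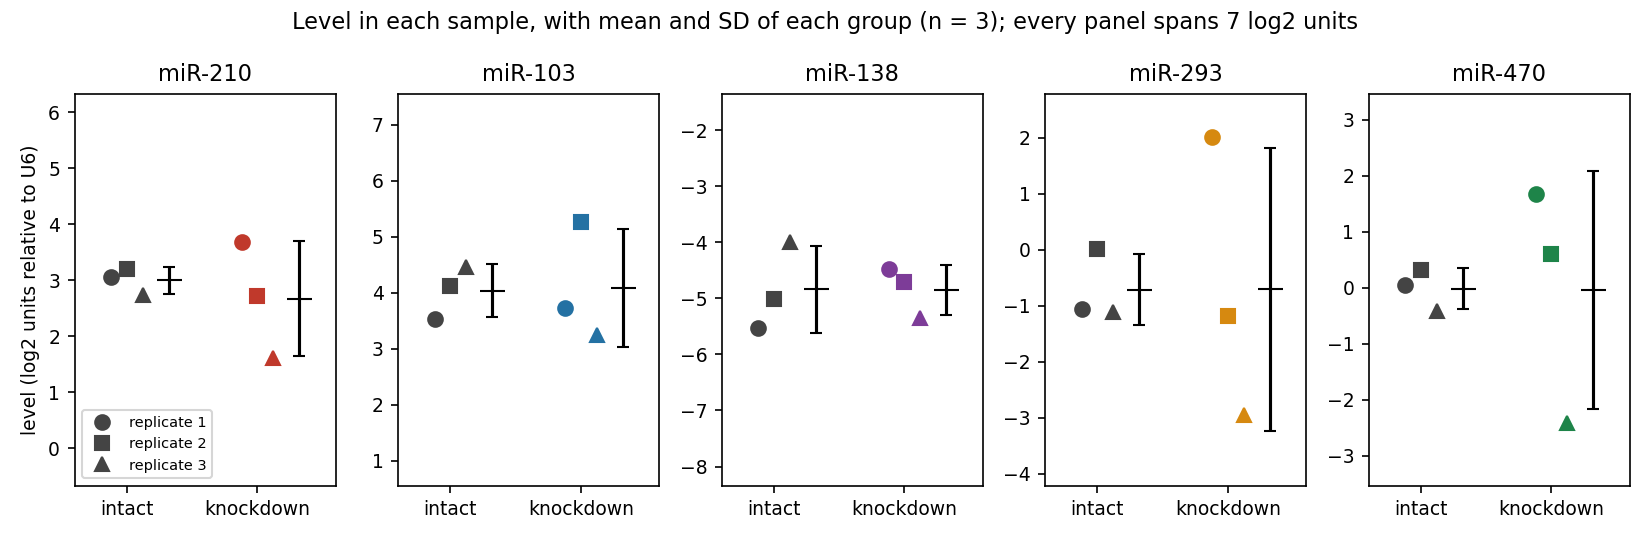
Level of miR-210, miR-103, miR-138, miR-293 and miR-470 (y axis, log2 units relative to U6) in each intact (grey) and knockdown (coloured) sample, with marker shape for the replicate number and black bars for the mean and SD of each group (n = 3). The 2 groups overlap in every panel, and the knockdown samples of miR-293 range over 4.97 log2 units and those of miR-470 over 4.10.

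To call these miRNAs unchanged would go beyond the values. The group means were close, but the 95% intervals above, given as the error of each difference, are wide. They draw on the variance of all 95 assays, 88 of which have a fixed linear knockdown mean. For miR-293 and miR-470, with residual SDs of 1.84 and 1.52, their own samples alone would give a larger SE and a wider interval. For miR-103, miR-138, miR-293 and miR-470 the difference was under 0.05 log2 units, and under 0.1 of its own SE. For these 4 the group means lay closer together than any pair of samples within a group. For miR-210 it was 0.53 of its SE. Among all 95 assays, 5 had a difference under 0.1 of its SE, namely these 4 and miR-668. All 5 are among the 7 assays without a fixed knockdown mean, which the choice of the miRNAs used, so nothing is read from this count. The authors' deposited table gives the fold of intact over knockdown as 1.256 for miR-210, 0.968 for miR-103, 1.003 for miR-138, 0.995 for miR-293 and 1.022 for miR-470. Its median over the 95 assays is 23.3, but 88 of the 95 have a fixed linear knockdown mean.

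**Figure D2:**
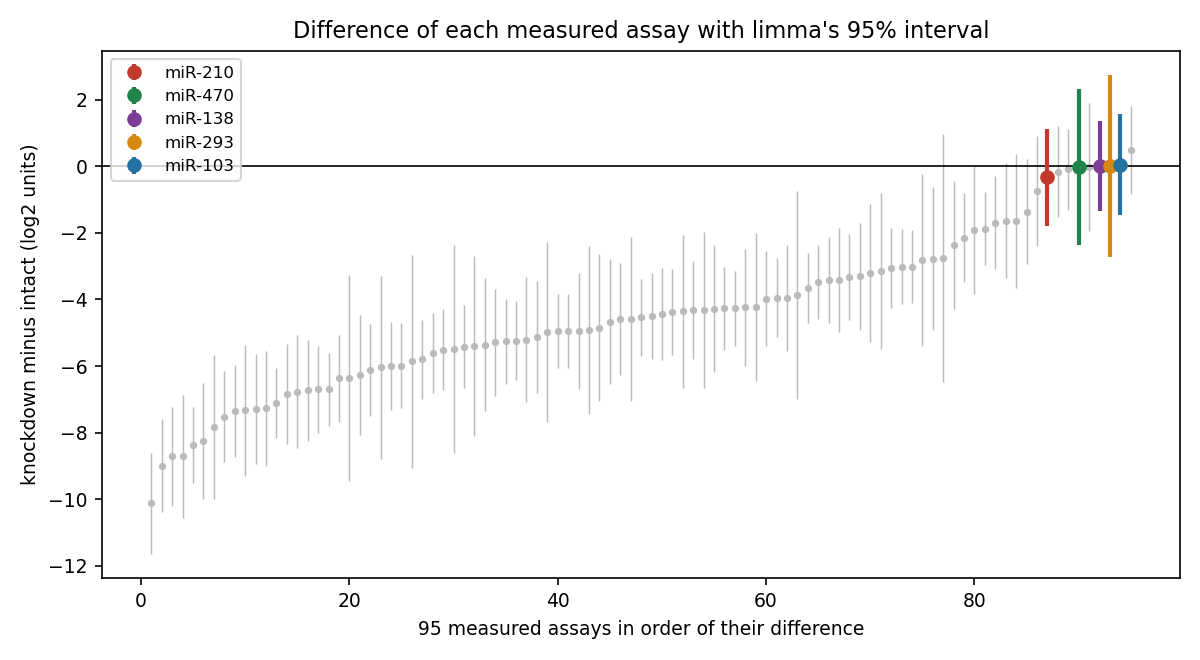
Difference of each of the 95 measured assays (y axis, knockdown minus intact, log2 units) with limma's 95% interval, ordered from lowest to highest on the x axis, with the 5 miRNAs coloured and the rest in grey. The 5 lie at the right end, between -0.33 and 0.046, while the median of the 95 is -4.54. Among them lie miR-668 (-0.021), miR-99a (-0.085) and miR-543 (-0.16), and miR-486 (0.49) lies furthest right. Of the 95, 88 have a fixed linear knockdown mean.

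The raw Ct values show where the 5 miRNAs stood before U6 was subtracted. U6 of plate 1 crossed the threshold at 29.3, 29.6 and 30.3 cycles in intact samples 1, 2 and 3, and at 31.1, 30.6 and 29.3 cycles in knockdown samples 1, 2 and 3. Its mean came 0.608 cycles later in knockdown samples. The mean Ct of the 5 miRNAs came later by 0.562 cycles for miR-103, 0.601 for miR-293, 0.612 for miR-138, 0.640 for miR-470 and 0.937 for miR-210. The median over the 95 assays was 5.15 cycles, but 88 of the 95 have a fixed linear knockdown mean. Thus miR-103, miR-293, miR-138 and miR-470 were later by nearly the same number of cycles as U6, and miR-210 by 0.33 cycles more. This restates the differences of level given above.

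For miR-210 the raw Ct was 26.2, 26.4 and 27.6 cycles in intact samples 1, 2 and 3, and 27.4, 27.8 and 27.7 cycles in knockdown samples 1, 2 and 3. Its knockdown values ranged over 0.404 cycles, while U6 of plate 1 ranged over 1.77 cycles in the same samples. Its knockdown levels, after U6 was subtracted, ranged over 2.06 log2 units. For miR-293 and miR-470 the raw Ct itself ranged widely in knockdown samples, over 3.20 and 2.32 cycles. For miR-103 it ranged over 2.08 cycles and for miR-138 over 0.907.

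**Figure D3:**
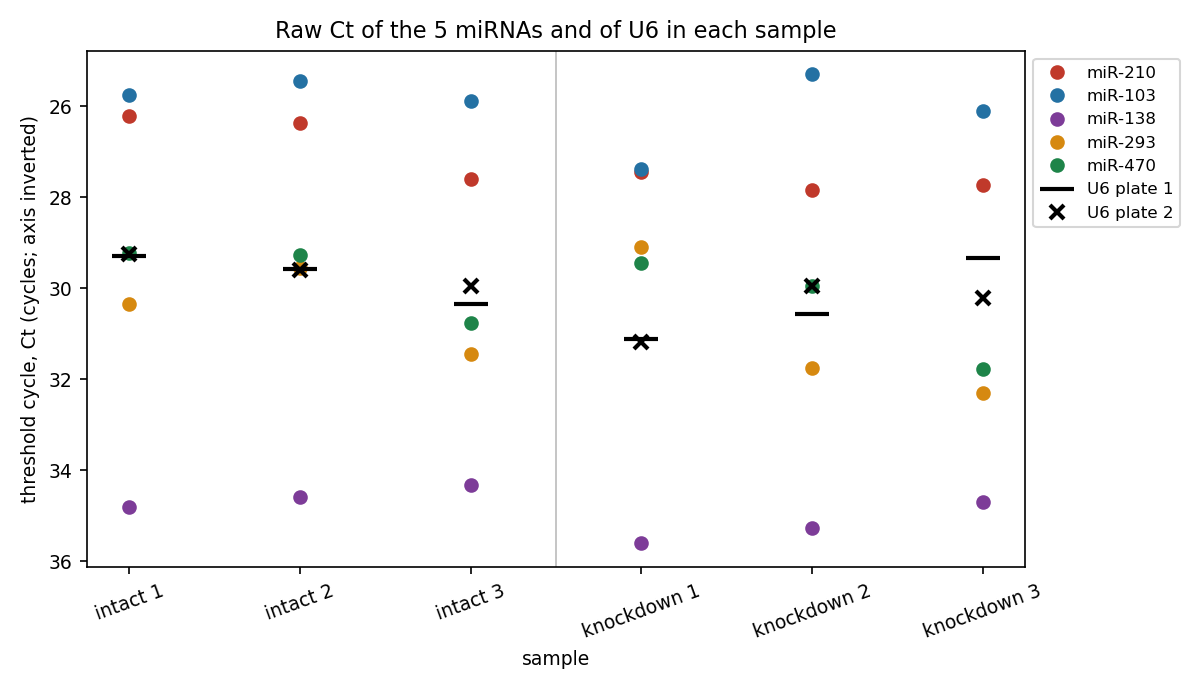
Raw threshold cycle (y axis, cycles, inverted so that more template is higher) of the 5 miRNAs (coloured points) and of U6 on plate 1 (black bars) and plate 2 (black crosses) in each sample (x axis). In knockdown sample 3, U6 of plate 1 came at 29.3 cycles, earlier than in the other knockdown samples, while miR-210 stayed between 27.4 and 27.8 cycles in all 3.

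On the level scale, knockdown sample 3 was the lowest of the 3 knockdown samples for 5 of 5 miRNAs, against 32 of the 95 assays (33.7%). It was also the lowest for miR-543 and miR-668, the other assays outside the 0.001 limit, so this is not particular to the 5. Of the 95 assays, 88 have a fixed linear knockdown mean. The choice of the miRNAs used these knockdown values, so nothing is read from the count. U6 of plate 2 gave 31.2, 30.0 and 30.2 cycles in knockdown samples 1, 2 and 3, so its sample 3 was not the earliest. Relative to U6 of plate 2, knockdown sample 3 was the lowest for 2 of the 5, miR-293 and miR-470, and likewise in raw Ct. Which U6 well stands for the RNA input was not tested.

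The choice of reference shifts all 5 differences together, since all lie on plate 1. Relative to U6 of plate 2 the differences became -0.087 for miR-210, 0.29 for miR-103, 0.24 for miR-138, 0.25 for miR-293 and 0.21 for miR-470. With the mean of 4 other control wells, which the files do not name, they were -0.79 for miR-210, -0.42 for miR-103, -0.47 for miR-138, -0.46 for miR-293 and -0.50 for miR-470. The differences below 0.05 log2 units therefore hold for U6 of the same plate. Centred on the mean Ct of the 95 measured miRNAs, the differences were 4.15 for miR-210 and 4.53 for miR-103, with the other 3 between them. That reference lay 4.48 log2 units lower in knockdown samples than U6 of plate 1, and 88 of its 95 assays have a fixed linear knockdown mean. In that setting 38 of the 95 assays passed (limma), 19 lower and 19 higher in knockdown, against 80 lower and 0 higher relative to U6, where 0 were higher at an unadjusted p under 0.05 too.

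**Figure D4:**
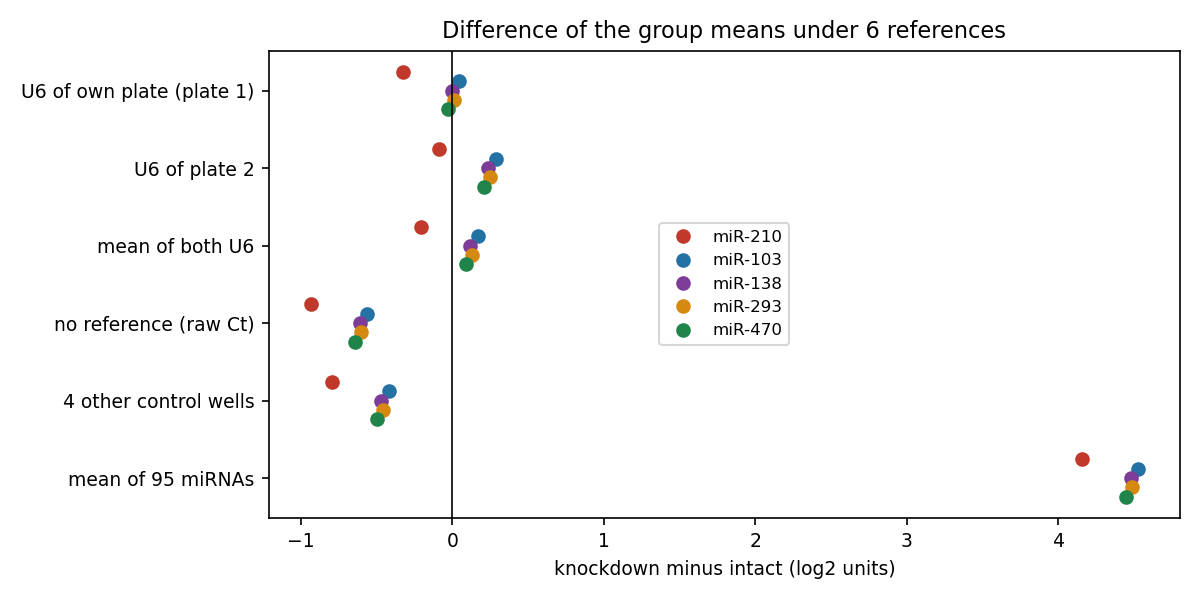
Difference of the group means (x axis, knockdown minus intact, log2 units) of the 5 miRNAs (coloured points) under 6 references (rows). Points move together between rows, from -0.94 to -0.56 with no reference, through -0.33 to 0.046 with U6 of the same plate, to 4.15 to 4.53 with the mean of the 95 miRNAs.

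Levels of different assays depend on their primers, so their order is one of assay readings. By mean level in the intact samples miR-103 was 53rd of the 95, miR-210 was 72nd, miR-470 was 92nd, miR-293 was 94th and miR-138 was 95th. The intact ranges of miR-103 (3.53 to 4.46) and miR-210 (2.73 to 3.20) did not overlap, and both lay above those of the other 3. Those of miR-470 (-0.415 to 0.31) and miR-293 (-1.11 to 0.019) overlapped, so these neighbours were not separated beyond their spread. miR-138 lay below all of them. In the knockdown samples miR-103 was 2nd and miR-210 was 3rd, behind miR-543, miR-470 was 29th, miR-293 was 83rd and miR-138 was again last, by the mean of the 3. The places of miR-293 and miR-470 differed widely between samples. In knockdown samples 1, 2 and 3, miR-293 stood at place 5, 77 and 91, and miR-470 at place 6, 15 and 88. The places in knockdown depend also on the other assays, 88 of which have their linear mean at U6. miR-293 and miR-470 themselves lay above their intact ranges in knockdown sample 1 (2.02 and 1.67). In knockdown sample 3 they lay below them (-2.95 and -2.42). What set the places was not tested.

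In intact samples the SD was 0.24 for miR-210, 0.37 for miR-470, 0.47 for miR-103, 0.64 for miR-293 and 0.78 for miR-138, around the median of 0.48 over the 95 assays. In knockdown samples the SD was larger than in intact samples for 4 of the 5, all but miR-138, and for 62 of the 95. The knockdown SD of miR-293 was the 9th largest of the 95 and that of miR-470 the 14th. Of the 95, 88 have a fixed linear knockdown mean, and the choice of the miRNAs used the knockdown values. Nothing is read from these counts and places.

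Likeness of profiles was measured as the root mean square difference of levels over the 6 samples, after subtracting each assay's own mean. For miR-210 the most alike of the 94 other assays was miR-543, at 0.23 log2 units, followed by miR-470, at 0.68, against a median of 2.46. miR-543 had levels of 6.02, 6.26 and 5.60 in intact samples 1, 2 and 3, and of 6.77, 5.50 and 5.13 in knockdown samples 1, 2 and 3. Like miR-210, it was highest in knockdown sample 1 and lowest in knockdown sample 3. For miR-293 and miR-470 each was the most alike to the other, at 0.67, followed by miR-210, at 0.94 and 0.68. For miR-103 the most alike were miR-486, at 0.56, and miR-138, at 0.57. For miR-138 they were miR-668, at 0.48, and miR-103, at 0.57. All these profiles share the U6 value that was subtracted, and all but miR-486 share a free knockdown mean, so the likeness is a description. The measure includes the difference between the groups, which the choice used. The median of 2.46 is mostly over assays with a fixed knockdown mean, 88 of the 94. No Ct of the 5 miRNAs was identical to that of another assay in the same sample.

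The lists of relatives give the setting of each miRNA on the array, every arm and star strand counted. Among miRNAs reported as raised by low oxygen, 13 assays were present and 7 had values. Of these, 3 passed (limma) and were lower in knockdown (miR-23a, miR-24 and miR-181a), 4 did not pass and 0 were higher, also at an unadjusted p under 0.05. miR-24 and miR-199a-3p carry identical deposited values in all 6 samples, so it is unsure to which assay they belong. Over all 95 assays 84.2% passed and were lower, and 2 of the 4 that did not pass here, miR-210 and miR-103, were chosen by the rule above. The 4 were miR-210, miR-103, miR-26a and miR-26b. The median difference of the 7 was -1.92, beside -4.54 over the 95. It was -1.11 without intact sample 1, -2.47 without intact sample 3 and 2.56 when centred on the mean Ct of the 95. miR-23a, of the miR-23/27/24 clusters, went from 5.92 ± 0.33 to -0.19 ± 0.87 (SD, n = 3 each), which is -6.11 (SE 0.59, limma adjusted p = 3.9e-05). miR-26b went from 1.88 ± 1.62 to -0.034 ± 0.39, a difference of -1.92 (SE 0.83, limma adjusted p = 0.059). miR-26a had a difference of -0.75 (SE 0.71, limma adjusted p = 0.36). The knockdown means of these 3, and those of miR-24 and miR-181a, are fixed in the sense above, while those of miR-210 and miR-103 are not. The list's members are therefore not like for like. Where the mean is fixed, the difference and limma's adjusted p follow the intact level and the spread. They are not read as an effect of the knockdown.

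A wider list joined miR-103 and miR-107 with the miR-15 and miR-16 family, whose seeds resemble that of miR-103 in a shifted position but are not the same. It had 14 assays, of which 1 had values, miR-103. Of 22 assays of the embryonic miR-290 to miR-295 and miR-302 clusters, 1 had values, miR-293. Of 31 assays of the X-linked testis clusters, 1 had values, miR-470. Of 15 assays of neural miRNAs, 2 had values. These were miR-128, whose level went from 6.84 ± 0.41 to -0.49 ± 1.68 (SD, n = 3 each), which is -7.33 (SE 0.85, limma adjusted p = 0.00011), and miR-138. The knockdown mean of miR-128 is fixed and that of miR-138 is not, so the values of the pair are not like for like. The difference and adjusted p of miR-128 follow its intact level and spread, and are not read as an effect of the knockdown. The miRNAs of the group that are known from stem cells, testis and brain were thus each measured without most of their relatives, and no Ct is given for those relatives.

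The labelled cell type was checked on marker miRNAs. Of 10 osteoclast and myeloid markers, 6 had values, with levels from 2.20 to 9.48 in intact and from -3.25 to 1.46 in knockdown samples. miR-155, miR-142-3p, miR-31 and miR-146a were Null in all 6 samples. Markers of other cells were also measured. Of 7 epithelial markers 4 had values, from 3.32 to 10.2 in intact and from -2.29 to 0.92 in knockdown samples. The liver miRNA miR-122 stood at 6.68 to 7.03 and at -1.90 to 0.82. All 3 erythroid markers had values (-1.06 to 3.56 and -3.03 to 1.45), as had 3 of 4 stromal (3.40 to 7.97 and -1.17 to 0.46) and 2 of 4 muscle markers (-0.32 to 5.68 and -1.57 to 0.66). One of the stromal markers is miR-199a-3p, whose values are identical to those of miR-24, so its assay is unsure. Both lymphoid markers (1.07 to 4.48 and -3.88 to 1.42) and miR-126-3p of endothelium (3.18 to 5.45 and -0.89 to 0.41) had values too. The knockdown means of all measured markers are fixed in the sense above. Whether cells of other types contributed to the values of miR-210, miR-103, miR-138, miR-293 or miR-470 was not tested.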

How the data were processed

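Per the labels' protocols, Trizol RNA was converted to cDNA (QuantiMir kit) and run for 40 PCR cycles on a ViiA7. The authors deposited Ct values of 717 wells, delta Ct on a log2 scale for 709 assays, and a linear ratio of intact over knockdown. Per the file headers the reference is U6. The U6 well of each plate was found as the one whose Ct equals Ct minus delta Ct of all measured assays of that plate. The Ct threshold and Null rule: not given in the sources used here. For 48 wells, IDs that a spreadsheet had turned into numbers were restored. Assays with a Ct under 35 in at least 3 samples (all 95 with values) were fitted with limma 3.58.1 in R 4.3.3 (eBayes without trend, no covariate, two-sided, Benjamini-Hochberg over the 95). The fit was tested on simulated data with free group means and the same SD for all assays. That test does not cover the fixed knockdown means here. The miRNAs, lists and tests were chosen with earlier results of these data known. Besides the 5 miRNAs, the text names the 2 assays most alike to each, the other assays outside the 0.001 limit and those just inside it, measured list and marker miRNAs, and controls. Any other miRNA was named after its values were seen. Levels assume doubling per cycle. Alternatives were other references, centring, quantile normalization, filters, variance models, left-out samples and a replicate block.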

Additional observations from a re-analysis of the deposited data

How the results depend on the processing

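Under the alternatives, 136 values stayed within the spread between replicates or, for counts, within 1.5 times, and 21 moved further. The 136 include settings that could not move a value, so the count is no measure of robustness. All 95 assays passed the Ct filter, so leaving it out changed nothing. The variance models, the replicate block and U6 of plate 1 cannot change the difference of group means for these miRNAs. Centred on the mean Ct of the measured miRNAs, 38 assays passed in place of 80, the median difference of the low-oxygen list was 2.56, and the differences were 4.53 for miR-103, 4.48 for miR-138, 4.15 for miR-210, 4.49 for miR-293 and 4.45 for miR-470. Centred on the median Ct, 41 passed, and the differences were 4.53 for miR-103, 4.48 for miR-138, 4.16 for miR-210, 4.49 for miR-293 and 4.45 for miR-470. After quantile normalization 12 passed, and the differences were 4.68 for miR-103, 4.71 for miR-210, 3.35 for miR-293 and 3.79 for miR-470. miR-138, last in every sample, is at 0 by construction, yet it is counted among the 136. Leaving out 1 sample gave 75 to 81 calls, differences from -0.54 to 0.46 for miR-103, from -0.34 to 0.42 for miR-138, from -0.83 to 0.20 for miR-210, from -1.36 to 1.13 for miR-293 and from -0.89 to 1.16 for miR-470, and a low-oxygen median from -2.47 (without intact 3) to -1.11 (without intact 1). The intact order ran from 46 to 57 for miR-103, 70 to 76 for miR-210 and 90 to 92 for miR-470. With the replicate block 82 assays passed. The deviations of same-numbered samples correlated at 0.025, 0.10 and 0.081 over the 95 assays, so the numbers were not taken as pairs. U6 of plate 2 and the mean of both U6 wells were added after seeing the data, with 75 and 79 calls.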

Other observations

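Among the 88 assays with a fixed linear knockdown mean, miR-99a and miR-486 had the smallest differences relative to their SE. miR-99a, of the miR-99 and miR-100 family, had levels of -0.19, -0.22 and 0.47 in intact samples 1, 2 and 3, and of -0.63, -0.016 and 0.45 in knockdown samples 1, 2 and 3, a difference of -0.085 (SE 0.52). miR-486, an erythroid miRNA, had levels of -0.75, 0.057 and -1.06 in intact samples 1, 2 and 3, and of -0.34, 0.61 and -0.56 in knockdown samples 1, 2 and 3, a difference of 0.49 (SE 0.57). For both, the intact levels lay near that of U6, where the knockdown mean is set.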
